A study of Mus musculus with 2 samples.

Results

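CD4-gated T cells at the site of a mouse brain tumour were described from single-cell transcript counts. A barcode counted as one of these cells if it held at least 1000 unique molecular identifiers (UMIs, each marking 1 captured transcript), at least 300 genes and at most 15% mitochondrially encoded UMIs. It also needed at least 1 UMI of Cd3d, Cd3e or Cd3g, at least 1 UMI of Cd4, none of Cd8a or Cd8b1, and at most 2 UMIs in all of the macrophage genes C1qa, C1qb and C1qc. By this gate 103 of 13145 barcodes past the quality limits were CD4-gated. Of these, 89 were among 4835 barcodes of the LTS library and 14 among 8310 barcodes of the control library. The levels of Cd3d, Cd3e, Cd3g, Cd4, Cd8a, Cd8b1 and the C1q genes chose the cells, so their values are given as a description.

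Both libraries came from Kunming mice carrying the glioma cell line G422-GBM, named G422TN in the design text, grown in the brain. The LTS library came from mice that had lived for over 100 days after a combined therapy, which the labels do not specify, and were then inoculated again in the opposite hemisphere. Mice of the control library were untreated. Tissue of both groups was collected at day 7, but the labels do not make clear which inoculation this day counts from in LTS mice, or how many mice each library holds.

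CD4 T cells recognise peptides on MHC class II molecules. As helpers they act on other immune cells through surface ligands such as CD40 ligand and through cytokines, and as regulatory T cells, which depend on the transcription factor Foxp3, they restrain immune responses. CD8 T cells recognise MHC class I and kill target cells through perforin and granzymes. In brain tumours both kinds of T cell lie among microglia, infiltrating myeloid cells and tumour cells.

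The LTS matrix held 149413534 UMIs and the control matrix 165796852. Each group is a single library, so conditions were compared with no test and no replicates, and the 95% intervals cover counting error only. Of the quality-passing barcodes, 13 occurred in both libraries, 1 of them an LTS CD4-gated cell, and no barcode was CD4-gated in both. CD8-gated cells, defined by the same limits with at least 1 UMI of Cd8a or Cd8b1 and none of Cd4, were the comparison within each library.

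CD4-gated cells were a minority of the T cells in the LTS library. Cells with a Cd3 UMI numbered 544 in LTS and 97 in control. The 89 LTS cells were 1.84% of quality-passing barcodes (1.48 to 2.26) and 16.4% of the Cd3-gated ones (13.3 to 19.7). The 14 control cells were 0.168% (0.0921 to 0.283) and 14.4% (8.12 to 23.0). Among cells with a single coreceptor, CD4-gated cells made up 24.5% in LTS (20.1 to 29.2), or 89 against 275 CD8-gated cells. They made up 41.2% in control (24.6 to 59.3), or 14 against 20. The shares of Cd3-gated cells and of cells with a single coreceptor had overlapping intervals between the libraries, and the shares of all barcodes did not. The share of Cd3-gated cells depended on the gate, at 20.4% in LTS and 29.5% in control with other T cell genes required, and 8.09% and 2.06% with at least 2 Cd4 UMIs, so its order between the libraries is not fixed. A further 177 LTS and 63 control Cd3-gated cells carried neither coreceptor, and 85 and 16 of those held other T cell transcripts, so part of the CD4 T cells may lie outside the gate.

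**Figure D1:**
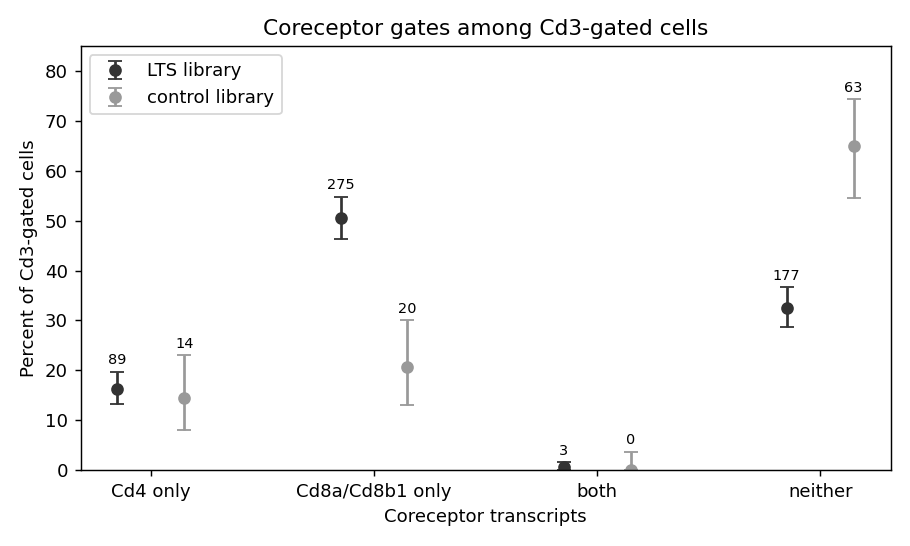
Percent of Cd3-gated cells (y axis) with Cd4 only, Cd8a or Cd8b1 only, both or neither (x axis), with exact binomial 95% intervals; dark points are the LTS library, grey points the control library, and numbers above are cells. The Cd4-only shares are 16.4% in LTS and 14.4% in control with overlapping intervals, and the neither class holds 177 LTS and 63 control cells.

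The label was checked on T cell genes that the gate did not use. Of 13 such genes fixed as markers, 10 were measured, among them Cd2, Cd5, Cd6, Lck, Lat, Skap1, Bcl11b, Cd28 and Cd247, and the receptor constant genes were not analysed here. At least 3 UMIs from at least 2 of them were found in 89 of 89 LTS cells and in 13 of 14 control cells. Ptprc, the pan-leukocyte gene, was found in 87 of 89 and in 9 of 14. The B cell list gave no UMI in either library, nor did the 3 measured genes of the gamma-delta T cell list. The list of natural killer and innate lymphoid genes, which includes Gata3, gave 44 UMIs in LTS cells and 17 UMIs in control cells. Cd4 itself was sparse, with 173 UMIs in LTS cells and 16 in control cells, and 45 LTS and 12 control cells entered on a single Cd4 UMI. Stray Cd4 was read in cells without Ptprc, limited to those with no Cd3 UMI and with a higher UMI minimum than the gate's. In them, which should lack Cd4, 4 of 2377 LTS cells (0.168%, median 39530 UMIs) and 6 of 5127 control cells (0.117%, median 20027) held a Cd4 UMI. Among macrophages, taken as cells with 10 or more C1q UMIs and no Cd3 UMI, 8 of 1014 LTS cells (0.789%, median 5556.5) and 10 of 1353 control cells (0.739%, median 4846) did. Without a Cd3 UMI no cell of these sets could enter the gate, so the shares describe stray Cd4 only. A Cd8a or Cd8b1 UMI was held by 50 of the 2377 LTS cells without Ptprc (2.10%) and 10 of the 5127 control ones (0.195%). Among macrophages it was held by 4 of 1014 LTS cells (0.394%) and 5 of 1353 control cells (0.370%).

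Near the limits of the gate, 58 of the LTS cells had no C1q UMI, 23 had 1 and 8 had 2, and 5 cells missed the gate only through 3 to 9 C1q UMIs. In control these numbers were 8, 5, 1 and 1. Through 10 or more C1q UMIs alone, 3 LTS and 4 control cells missed the gate. A further 10 LTS and 7 control cells missed it only for want of a Cd3 UMI, and 3 LTS cells and 0 control cells only through a Cd8a or Cd8b1 UMI.

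CD4-gated cells were small in transcript content. Their median was 3656 UMIs and 1564 genes in LTS, against 3455 UMIs and 1475 genes in LTS CD8-gated cells, where all quality-passing LTS barcodes had a median of 18779 UMIs. The median was 2517.5 UMIs in control CD4-gated cells, against 2579.5 in control CD8-gated cells. The LTS CD8 gate held 11 cells above 20000 UMIs and 15 without the T cell genes above. The CD4 gate held 2 of the first kind and none of the second. The summed markers of non-immune cells were 1835 counts per 1000000 UMIs (CPM) in CD4-gated and 3674 CPM in CD8-gated LTS cells, with 3 and 2 of 15 genes at 0, and those of microglia and macrophages 353 and 666 CPM, with 1 and 0 of 14 genes at 0. Monocyte markers stood at 2032 and 2022 CPM, dendritic markers at 183 and 507 CPM, and those of natural killer and innate lymphoid cells at 102 and 149 CPM, with 7 and 5 of their 12 genes at 0. Because deep cells and non-immune transcripts were more frequent in the CD8 gate, a second comparison kept only cells with the T cell genes and at most 20000 UMIs. That comparison left 87 CD4-gated and 254 CD8-gated LTS cells, and removed 12.9% of the CD4-gated and 40.1% of the CD8-gated UMIs. It was added after the data had been seen, and is called the restricted comparison below.

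Counts were summed over the cells of a gate and scaled to CPM. A fold is a ratio of CPM and a log2 ratio adds 10 CPM to both levels. A list member counted as measured at 50 CPM or more in either gate. Among 3344 measured genes of the LTS library, 3.8% were at least 2-fold higher in CD4-gated than in CD8-gated cells and 6.1% at least 2-fold lower, with a median log2 ratio of -0.03.

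Helper genes were higher in CD4-gated than in CD8-gated LTS cells. Of 15 genes of CD4 lineage and help, 7 were measured, and 7 of these 7 were higher, each at least 2-fold, beside the 3.8% of all genes. Their median log2 ratio was 1.87. It was 1.00 in the restricted comparison, where 8 of 8 measured members were higher and 4 of them at least 2-fold. The summed list stood at 1357 CPM in CD4-gated and 348 CPM in CD8-gated cells, a 3.90-fold ratio (3.47 to 4.39). General T cell genes were higher too. Of the 10 measured ones that checked the label, 9 were higher and 1 lower, 5 of them at least 2-fold higher. Their median log2 ratio was 0.98, and 0.29 in the restricted comparison, which requires them. Their sum was 1.91-fold higher (1.79 to 2.05).

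Cd40lg encodes CD40 ligand, the surface signal by which helper cells license antigen-presenting cells and B cells. It gave 19 UMIs in 17 of 89 CD4-gated LTS cells and none in 275 CD8-gated cells. The level was at least 23.5-fold higher in CD4-gated cells, taking 3 counts over the CD8 gate as the limit. Neither macrophages (0 of 1014) nor cells without Ptprc (0 of 2377) held a Cd40lg UMI. No Cd40lg UMI was found in the 14 control CD4-gated cells, which by the exact interval allows up to 23.2% of cells with a UMI and sets no limit on cells that express it.

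Tnfsf8, the ligand of CD30, gave 51 UMIs in 23 CD4-gated cells, against 6 UMIs in 5 CD8-gated cells, and was 31.5-fold higher (13.5 to 89.9). Icos, an inducible costimulatory receptor, gave 89 UMIs in 35 cells and 79 in 58, a 4.18-fold ratio (3.05 to 5.73). Cd28, the main costimulatory receptor, was found in 60.7% of CD4-gated cells (49.7 to 70.9) and 34.5% of CD8-gated cells (28.9 to 40.5). Cd5 and Cd6, scavenger-type receptors that tune T cell receptor signals, were 4.22-fold (3.09 to 5.77) and 2.36-fold (1.74 to 3.18) higher. In the restricted comparison the log2 ratio was 3.06 for Tnfsf8, 1.45 for Icos, 1.22 for Cd5, 0.77 for Cd28 and 0.35 for Cd6, so the last 2 were then under 2-fold. Cd5, Cd6 and Cd28 belong to the T cell genes that this comparison requires, so for them the filter uses the genes compared.

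Zbtb7b, whose product ThPOK directs thymocytes to the CD4 fate, gave 19 UMIs in 18 CD4-gated cells and 25 UMIs in 21 CD8-gated cells. That is 44.1 and 15.6 CPM, a 2.82-fold ratio (1.47 to 5.33). Its share of cells, 20.2% of CD4-gated cells, lay beside 15.9% in LTS macrophages (median 5556.5 UMIs) and 43.4% in the deeper cells without Ptprc, so Zbtb7b was not particular to T cells in this library.

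**Figure D2:**
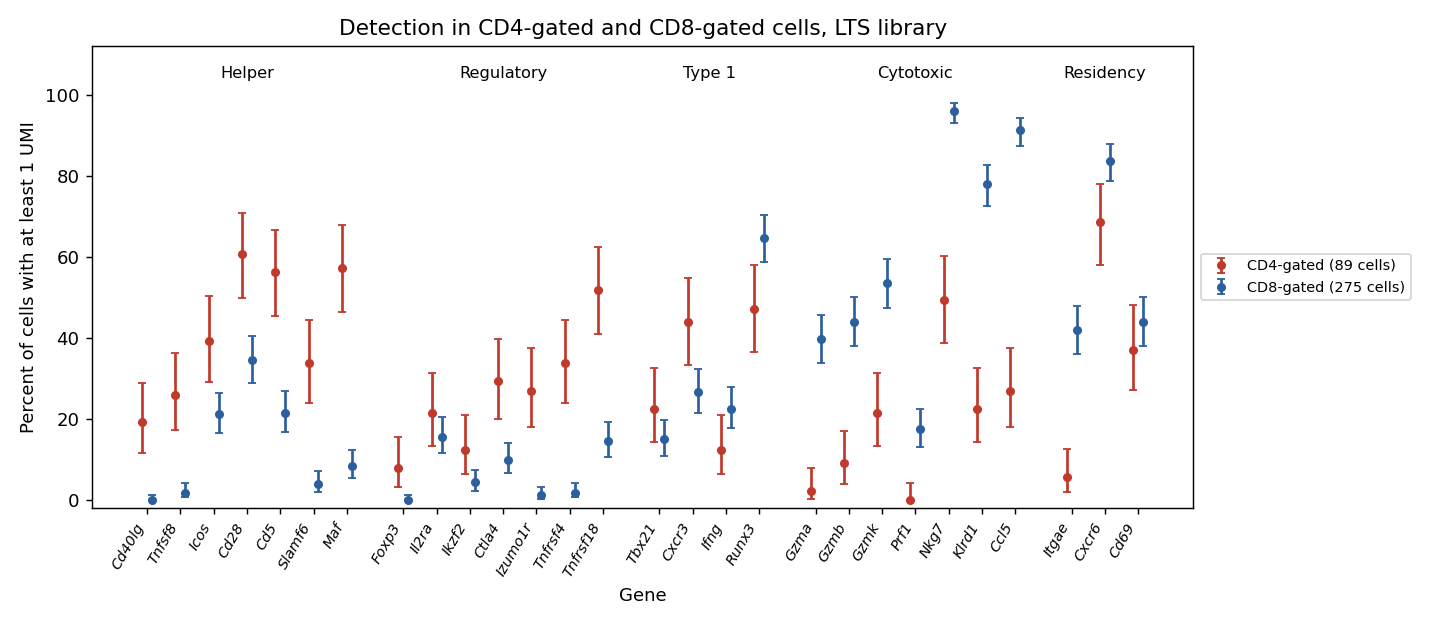
Percent of cells with at least 1 UMI (y axis) of helper, regulatory, type 1, cytotoxic and residency genes (x axis) in 89 CD4-gated (red) and 275 CD8-gated (blue) cells of the LTS library, with exact binomial 95% intervals. Cd40lg and Foxp3 were found in 19.1% and 7.87% of CD4-gated cells and in none of the CD8-gated cells, while Ccl5 was found in 27.0% and 91.3%.

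Genes of the regulatory T cell programme were also higher in CD4-gated cells. Of 20 list genes 9 were measured and 9 of 9 were higher, 8 of them at least 2-fold, beside 3.8% of all genes. The median log2 ratio was 2.20. In the restricted comparison it was 2.52 over 10 measured members, or 2.33 with Foxp3, which is at 0 in CD8-gated cells, set at its limit. The summed list stood at 1506 CPM in CD4-gated and 423 CPM in CD8-gated cells, a 3.56-fold ratio (3.19 to 3.97).

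Foxp3, the factor that defines regulatory T cells, lies on chromosome X (GRCm38 chrX:7573644-7595245). It gave 19 UMIs in 7 of 89 CD4-gated LTS cells (7.87%, 3.22 to 15.5), with 5 in the highest cell, and no UMI in 275 CD8-gated cells. The level, 44.1 CPM, was at least 23.5-fold higher than in CD8-gated cells. No macrophage of 1014 held a Foxp3 UMI, and 6 of 2377 cells without Ptprc did (0.252%).

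Tnfrsf4, which encodes the costimulatory receptor OX40, had the highest log2 ratio of all genes named by rank, 3.53. It gave 61 UMIs in 30 CD4-gated cells and 5 UMIs in 5 CD8-gated cells, or 142 and 3.13 CPM. Its neighbour Tnfrsf18, which encodes GITR, gave 81 UMIs in 46 cells and 53 UMIs in 40 cells, a 5.67-fold ratio (3.96 to 8.17). Tnfrsf4 was found in 1.58% of LTS macrophages and 6.31% of cells without Ptprc, below the 33.7% of CD4-gated cells.

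The starts of Tnfrsf4 and Foxp3 are shown because Tnfrsf4 had the highest log2 ratio and Foxp3 defines regulatory T cells. The RefSeq promoter windows (GRCm38.p6, plus strand, 250 bases before and 50 after the start) cover chr4:156013445-156013744 and, for the first of 2 Foxp3 starts, chrX:7579426-7579725. Capitals mark TTTCC, the opposite-strand reading of GGAAA, the core bound by NFAT factors, which act downstream of the T cell receptor.
Tnfrsf4: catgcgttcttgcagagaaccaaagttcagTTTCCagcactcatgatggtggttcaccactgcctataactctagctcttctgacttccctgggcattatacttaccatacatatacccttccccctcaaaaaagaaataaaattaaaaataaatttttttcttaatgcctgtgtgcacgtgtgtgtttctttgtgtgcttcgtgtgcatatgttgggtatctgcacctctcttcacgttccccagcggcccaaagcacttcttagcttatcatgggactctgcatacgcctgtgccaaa
Foxp3: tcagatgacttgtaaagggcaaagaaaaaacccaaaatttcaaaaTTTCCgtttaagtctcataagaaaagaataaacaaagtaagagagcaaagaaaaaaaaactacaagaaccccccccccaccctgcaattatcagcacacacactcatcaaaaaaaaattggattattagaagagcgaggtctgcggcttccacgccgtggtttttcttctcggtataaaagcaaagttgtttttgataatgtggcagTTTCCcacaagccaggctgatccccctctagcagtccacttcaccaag
GGAAA was searched on both strands and found 1 time in the Tnfrsf4 window and 2 times in this Foxp3 window. Of 32851 windows of the same length, 61.3% hold it. The AP-1 motif TGANTCA, searched likewise, was found in neither of these windows and in 7.81% of all.

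Other members of the regulatory list were higher in CD4-gated cells as well. Ctla4, an inhibitory receptor for CD80 and CD86, gave 48 UMIs in 26 CD4-gated cells, against 35 UMIs in 27 CD8-gated cells, a 5.09-fold ratio (3.22 to 8.10). Izumo1r, which encodes folate receptor 4, gave 40 UMIs in 24 cells and 5 UMIs in 3 cells, and was 29.7-fold higher (11.7 to 96.3). Ebi3, a subunit of interleukins 27 and 35, gave 27 UMIs in 18 cells and 1 UMI in 1 cell, with a share of 20.2% of CD4-gated cells (12.4 to 30.1) beside 14.0% of macrophages (11.9 to 16.3). Both receptors were more than 2-fold higher in the restricted comparison too, with log2 ratios of 1.63 for Ctla4 and 2.94 for Izumo1r.

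Il2ra, the high-affinity subunit of the interleukin 2 receptor, gave 62 UMIs in 19 CD4-gated cells and 53 UMIs in 43 CD8-gated cells. Its shares of cells, 21.3% (13.4 to 31.3) and 15.6% (11.6 to 20.5), overlapped, while its summed level was 4.34-fold higher (2.96 to 6.38), so the CD4-gated cells that carried it held more of it. Ikzf2, which encodes Helios, gave 38 UMIs in 11 cells, against 18 UMIs in 12 cells. Nrp1, a receptor of semaphorins that marks many thymus-derived regulatory T cells, gave 83 UMIs in 40 cells and 103 UMIs in 28 cells. Nrp1 and Ikzf2 are also used by other cells here. Nrp1 was found in 51.7% and Ikzf2 in 11.2% of macrophages, and in 78.2% and 27.8% of cells without Ptprc.

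Several list members were at a few UMIs at most. Il10, a suppressive cytokine, gave 1 UMI in CD4-gated LTS cells, Tigit 1, Lrrc32 3, Ccr8 3 and Itgb8 1. Such counts give no basis for a comparison with CD8-gated cells.

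Regulatory transcripts met in the same cells. Of the 7 LTS cells with Foxp3, 6 also held Il2ra, against 13 of the 82 without Foxp3. Likewise 6 of 7 held Ikzf2, against 5 of 82, and 6 of 7 held Izumo1r, against 18 of 82. Ctla4 was found in 6 of 7 and 20 of 82. At least 3 of Il2ra, Ikzf2, Ctla4, Izumo1r, Tnfrsf4 and Tnfrsf18 occurred in 6 of the 7 cells, and also in 17 of the 82 others. The cells with Foxp3 were not the deeper ones, with a median of 2723 UMIs, against 3657.5 in those without it.

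The cells with Foxp3 differed in other transcripts from the remaining CD4-gated cells. None of the 7 held Cd40lg, against 17 of 82, and none held Tnfsf8, against 23 of 82. Cxcr6, a chemokine receptor of tissue T cells, was in 1 of 7 and 60 of 82. Il7r, the interleukin 7 receptor, which regulatory T cells usually carry at low levels, was in 2 of 7 and 57 of 82. Gzmb, a granzyme, was in 4 of 7 and 4 of 82, and 25 of all 30 Gzmb UMIs of CD4-gated LTS cells lay in the cells with Foxp3, 18 of them in 1 cell. These counts rest on 7 cells of 1 library and their genes were chosen after the values had been seen. At the lower median depth of the cells with Foxp3, an absent transcript may also have been missed.

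**Figure D3:**
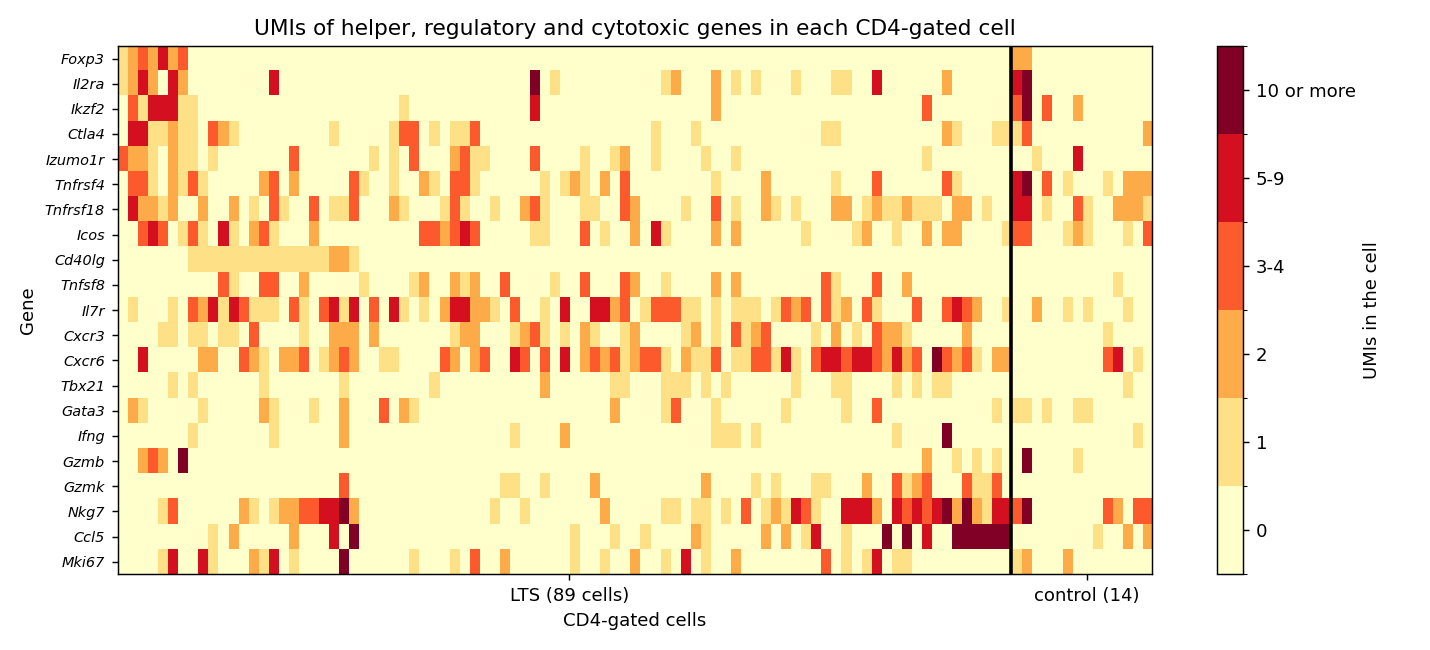
UMIs (colour scale) of 21 genes (rows) in each CD4-gated cell (columns), with 89 LTS cells left of the black line and 14 control cells right of it. Within each library, cells with Foxp3 come first, then those with Cd40lg, then the rest by rising UMIs of the cytotoxic list; the 7 LTS cells with Foxp3 carry Il2ra, Ikzf2 and Gzmb more often than the others, and no cell holds both Foxp3 and Cd40lg.

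Cd40lg was found in 17 of the CD4-gated LTS cells. Of these, 15 held Il7r, against 44 of the 72 cells without Cd40lg, and 12 held Cxcr6, against 49 of 72. Only 1 of 17 held Il2ra, against 18 of 72. Cxcr3, the receptor of interferon-induced chemokines, was in 9 of 17 and 30 of 72. A single UMI marked Cd40lg in most of these cells, so others may have been missed. Most of the cells with Cd40lg also held more UMIs than the median of 3656 over all CD4-gated LTS cells. When every cell was thinned to the same number of UMIs, 1 of 89 cells held Cd40lg. The part of depth in these shares was not tested.

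Cxcr6 and Slamf6 divided the CD4-gated LTS cells in a pattern noticed in these values. Slamf6, a receptor of the SLAM family found on less differentiated T cells, occurred in 11 of the 61 cells with Cxcr6 and in 19 of the 28 without it. It was in 6 of the 7 cells with Foxp3. Against CD8-gated cells Slamf6 was 12.3-fold higher (6.92 to 23.0), with 53 UMIs in 30 cells and 16 UMIs in 11 cells. LTS macrophages held Slamf6 in 17.5% of cells, against 33.7% of CD4-gated cells.

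Helper lineages were weakly marked. The type 1 list (Th1, the interferon-gamma-producing helpers) had 9 measured genes of 15, of which 6 were higher and 3 lower than in CD8-gated cells, with a median log2 ratio of 0.53 and of 0.12 in the restricted comparison. Tbx21, which encodes its master factor T-bet, gave 21 UMIs in 20 CD4-gated cells and 46 UMIs in 41 CD8-gated cells. The 1.69-fold ratio had an interval of 0.960 to 2.90. Ifng gave 22 UMIs in 11 cells, 45.5% of them in 1 cell, against 92 UMIs in 62 cells, and its ratio of 0.887 (0.530 to 1.42) spans equality. Cxcr3 gave 64 UMIs in 39 cells and 95 UMIs in 73 cells, a 2.50-fold ratio (1.79 to 3.47), which was a log2 ratio of 0.66 in the restricted comparison. Runx3, which directs the CD8 fate, was found in 47.2% of CD4-gated cells and 64.7% of CD8-gated cells. Lta, which encodes lymphotoxin alpha, gave 46 UMIs in 12 cells, but 1 cell held 60.9% of them.

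Type 2 and type 17 helper genes were few, with 2 measured of 12 and 2 of 13, all higher in CD4-gated cells. The type 2 median log2 ratio was 2.19, and 1.82 in the restricted comparison. Its sum was 4.74-fold higher (3.80 to 5.93). The type 17 median was 1.76, and 0.81 in the restricted comparison over 3 measured genes. Gata3, the type 2 factor that all T cells also need, gave 31 UMIs in 18 CD4-gated cells and 36 UMIs in 33 CD8-gated cells, and was 3.19-fold higher (1.91 to 5.31), or 0.72 on the log2 scale in the restricted comparison. Il4 gave 2 UMIs, Il5 gave 2 and Il13 none. Maf, a factor of several helper lineages and of macrophages, gave 129 UMIs in 51 cells and 44 UMIs in 23 cells. Macrophages of the library held Maf in 65.0% of cells, against 57.3% of CD4-gated cells. Il17a, Il17f, Il22 and Il23r were at 0 in all 89 cells, which by the exact interval allows up to 4.06% of cells with a UMI and sets no limit on cells that express them. Rora, a factor shared with other T cells, gave 92 UMIs in 47 cells and 124 UMIs in 88 cells, 2.75-fold (2.08 to 3.63). Of the other type 17 genes Tmem176b was measured, with 32 UMIs in 11 cells and 14 UMIs in 10 cells.

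The follicular helper list had 4 measured genes of 12, all 4 higher (Slamf6, Icos, Sh2d1a and Pdcd1), with a median log2 ratio of 1.45 and of 0.96 in the restricted comparison. Its defining genes were scarcely found. Bcl6, the lineage factor, gave 3 UMIs in 3 cells, and Cxcr5, Il21 and Ascl2 none. Pdcd1, which encodes PD-1, gave 45 UMIs in 15 CD4-gated cells, 42.2% of them in 1 cell, against 76 UMIs in 57 CD8-gated cells. Il2, the growth factor of activated helper cells, gave 1 UMI in each gate. In all, 39 of 89 LTS cells held a UMI of Tbx21, Gata3, Foxp3 or Bcl6, and 6 held both Tbx21 and Gata3.

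**Figure D4:**
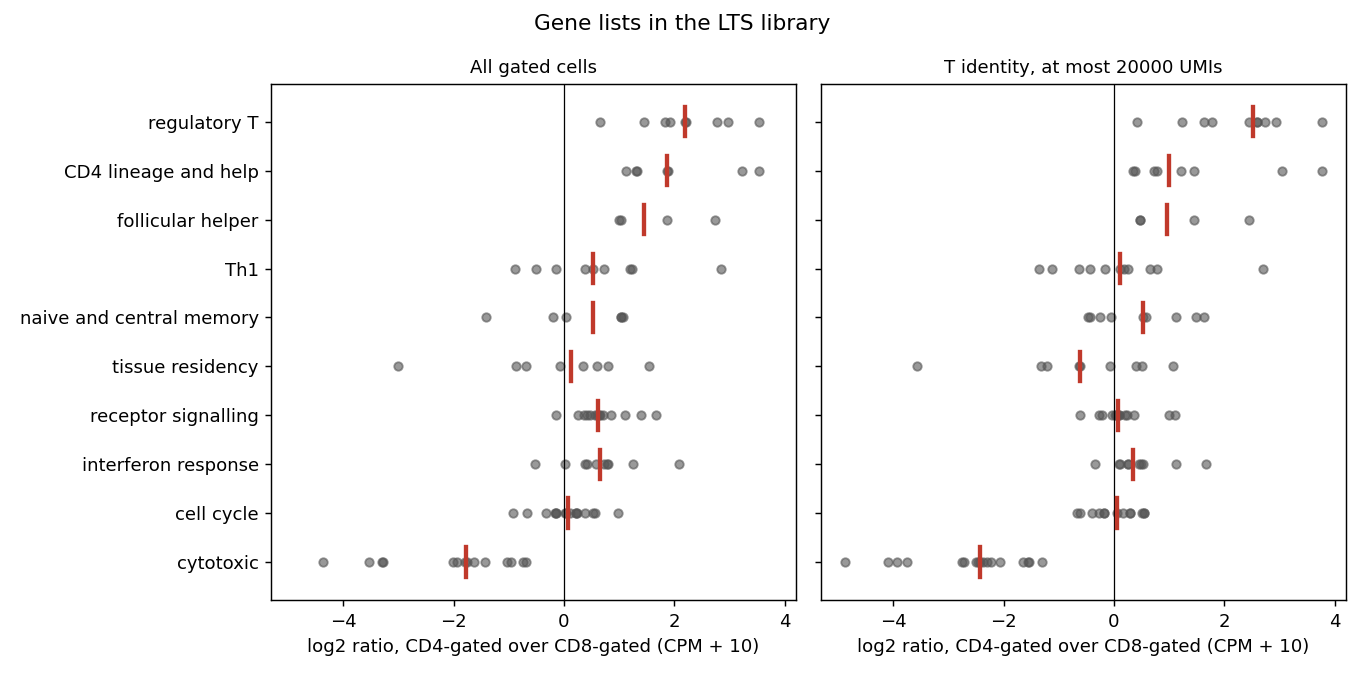
Log2 ratio of CD4-gated over CD8-gated cells of the LTS library (x axis, 10 CPM added to each level) for the measured members of 10 gene lists (rows, grey points) with the list median (red bar), over all gated cells (left) and in the restricted comparison (right). The regulatory median is 2.20 on the left and 2.52 on the right, the cytotoxic median -1.77 and -2.42, and the residency median moves from the right to the left of 0.

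Cytotoxic genes were lower in CD4-gated than in CD8-gated LTS cells throughout the list. Of 21 genes 14 were measured and 14 of 14 were lower, 11 of them at least 2-fold, beside 6.1% of all genes. The median log2 ratio was -1.77, and -2.42 in the restricted comparison, where 17 of 17 were at least 2-fold lower (-2.37 with Prf1 set at its limit). The summed list stood at 1905 CPM in CD4-gated and 12322 CPM in CD8-gated cells, 6.47-fold lower (6.03 to 6.94).

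Prf1, which encodes perforin, gave no UMI in 89 CD4-gated cells and 58 UMIs in 48 CD8-gated cells, and was at least 5.21-fold lower with 3 counts over the CD4 gate as the limit. Gzma gave 49 UMIs in 2 CD4-gated cells, 89.8% of them in 1 cell, against 4071 UMIs in 109 CD8-gated cells. Gzmk, a granzyme of memory-type cells, was found in 21.3% of CD4-gated cells (13.4 to 31.3) and 53.5% of CD8-gated cells (47.4 to 59.5). Ccl4, a chemokine made by activated cytotoxic cells, gave 2 UMIs in 2 cells and 254 UMIs in 107 cells.

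Ccl5, another chemokine of cytotoxic T cells, gave 279 UMIs in 24 CD4-gated cells and 10156 UMIs in 251 CD8-gated cells. Its share of CD4-gated cells, 27.0%, is close to the 24.4% of cells without Ptprc and the 20.8% of macrophages, whose medians were 39530 and 5556.5 UMIs. The 5 highest CD4-gated cells held 55, 47, 33, 30 and 25 Ccl5 UMIs, and after thinning to 1000 UMIs 20.2% of CD4-gated cells and 85.5% of CD8-gated cells held one. Nkg7, a granule membrane protein, gave 168 UMIs in 44 CD4-gated cells and 1712 UMIs in 264 CD8-gated cells. Its 49.4% of CD4-gated cells (38.7 to 60.2) lay above the 2.19% of cells without Ptprc and the 0.986% of macrophages.

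The cytotoxic list was spread unevenly over CD4-gated LTS cells. Cells held 0 to 75 of its UMIs with a median of 3, 16 cells held none, and the 5 highest held 34.7% of the total. Izumo1r was in 4 of the 44 cells with Nkg7 and in 20 of the 45 without it, and Tnfrsf4 in 9 of 44 and 21 of 45.

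Residency genes differed from one another. Itgae, which encodes the CD103 integrin chain that binds E-cadherin, gave 6 UMIs in 5 CD4-gated cells and 293 UMIs in 115 CD8-gated cells, 13.2-fold lower (5.98 to 36.2). Cxcr6 was abundant in both, with 184 UMIs in 61 cells and 719 UMIs in 230 cells, or 427 and 450 CPM, a ratio of 0.949 (0.803 to 1.12). Cd69, an early activation gene that retains cells in tissue, was found in 37.1% and 44.0% of cells, with a ratio of 1.28 (0.968 to 1.69). Bhlhe40, a factor of activated helper cells, was 3.45-fold higher (2.34 to 5.09) in CD4-gated cells. Of 8 measured genes of 16, 4 were higher and 4 lower, with a median log2 ratio of 0.13, and of -0.61 in the restricted comparison, so the list has no settled direction.

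Genes of naive and central memory T cells had 6 measured members of 15, 4 higher and 2 lower in CD4-gated cells, with a median log2 ratio of 0.53 in both comparisons. The list summed to 1708 CPM in CD4-gated and 1451 CPM in CD8-gated cells, 1.18-fold (1.08 to 1.28). Ccr7, which encodes a receptor for entry into lymph nodes, gave 4 UMIs in 4 of 89 CD4-gated cells. Il7r was the most frequent, with 165 UMIs in 59 CD4-gated cells and 289 UMIs in 133 CD8-gated cells, 2.12-fold higher (1.74 to 2.57), or 0.58 on the log2 scale in the restricted comparison. Il7r also occurred in 15.6% of macrophages, against 66.3% of CD4-gated cells. S1pr1, the receptor for exit from tissue, gave 21 UMIs in 16 cells and 14 UMIs in 13 cells.

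The lists not treated above had medians under 2-fold. Of the receptor signalling list 14 of 16 genes were measured and 13 of 14 were higher in CD4-gated cells, with a median log2 ratio of 0.62, but of 0.08 in the restricted comparison. Cytokine receptors had 8 measured genes of 15, 7 of them higher, with medians of 0.87 and 0.22. The checkpoint list had 4 measured genes of 15 with medians of 0.91 and 0.38, and its Havcr2 and Lag3 were below 50 CPM in both gates. Chemokine receptors had 6 of 16 measured, 3 higher and 3 lower, with a median of 0.12 that turned to -0.19 in the restricted comparison. The cell cycle list had all 16 measured, 10 higher and 6 lower, with a median of 0.07. The dissociation stress list had 12 of 18 measured, 6 in each direction, with a median of -0.16.

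Interferon-induced genes were moderately higher, in 9 of 10 measured members of 20, with a median log2 ratio of 0.66 and of 0.35 in the restricted comparison. Ifi27l2a, which is strongly induced by type I interferon, led them with 830 UMIs in 82 CD4-gated cells and 717 UMIs in 136 CD8-gated cells, 4.29-fold higher (3.88 to 4.75). Macrophages held Ifi27l2a in 77.0% of cells, against 92.1% of CD4-gated cells. Bst2 was the lower member, at a log2 ratio of -0.53, and at 0.25 in the restricted comparison.

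Among 1572 genes at 100 CPM or more and in at least 10% of cells of the higher gate, 64 were at least 2-fold higher in CD4-gated LTS cells (4.07%) and 76 lower (4.83%). The restricted comparison had 35 and 36 of 1454. Of the 15 highest by rank, those outside the groups above were Podnl1, Ramp1, Tesc, Tspan32 and Syt11. Podnl1, a small leucine-rich repeat protein, gave 77 UMIs in 43 CD4-gated cells and 21 UMIs in 20 CD8-gated cells, 13.6-fold higher (8.31 to 23.2). Ramp1, a subunit of the receptor for the neuropeptide CGRP, gave 57 UMIs in 35 cells and 31 UMIs in 28 cells, 6.82-fold (4.33 to 10.9). Tspan32, a tetraspanin of blood cells, and Syt11, a synaptotagmin, had log2 ratios of 2.09 and 1.74, and 1.81 and 1.58 in the restricted comparison.

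Of the 15 lowest genes by rank, Gzma, Ccl4, Ccl5, Itgae and Klre1 are T cell or natural killer genes. The other 10 were Tcf4, Ppic, Nedd4, Col3a1, Ctsl, Hmga2, Serpinh1, Sox4, Tex101 and Sparc. Col3a1, a fibrillar collagen, had a log2 ratio of -2.26 in all cells and of -0.99 in the restricted comparison, and Hmga2, a chromatin factor of growing cells, -2.21 and -0.49. Gzma kept a log2 ratio of -4.87 and Itgae of -3.56 there. The part of the deep CD8-gated cells in these values was measured only in this way.

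Several of the higher genes lie beside each other in the genome (GRCm38, GENCODE M21). Tnfrsf4 (chr4:156013843-156016612) and Tnfrsf18 (chr4:156026164-156028895) are neighbours, as are Cd28 (chr1:60716800-60773359), Ctla4 (chr1:60887000-60915832) and Icos (chr1:60977927-61000320). Cd5 (chr19:10717116-10739002) and Cd6 (chr19:10789341-10830058) are neighbours as well. Each of these 7 genes was at least 2-fold higher in CD4-gated LTS cells, with Cd28 and Cd6 under 2-fold in the restricted comparison.

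In the control library the same groups stood in the same order, though in few cells. Its 14 CD4-gated and 20 CD8-gated cells held 58476 and 106483 UMIs. At this depth 17.7% of 4367 measured genes were at least 2-fold higher in CD4-gated cells and 15.2% lower. Under the 100 CPM limit these shares were 12.3% and 11.3% of 2132 genes. The lineage and help list was higher in 9 of 9 measured members, 8 of them at least 2-fold. It summed to 1727 CPM in CD4-gated and 329 CPM in CD8-gated cells, 5.25-fold (3.55 to 7.96). The regulatory list was higher in 9 of 11, at 2582 and 648 CPM, 3.99-fold (2.98 to 5.38). The cytotoxic list was lower in 11 of 11, at 1009 and 6132 CPM, 6.08-fold (4.65 to 8.07). One control cell of 12336 UMIs held 69 of the 151 regulatory UMIs. A further control cell held 75 of the 84 UMIs of the MHC class II genes H2-Ab1, H2-Aa and Cd74, which T cells of mice largely lack. That cell held 6392 UMIs.

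Foxp3 was found in 2 of the 14 control cells, which are the cell of 12336 UMIs and the cell of 6392 UMIs rich in MHC class II. Their median was 9364 UMIs, against 2319 in control cells without Foxp3, so here they were the deeper cells. These 2 held all 22 Il2ra UMIs of the control CD4-gated cells, 17 of them in the cell of 12336 UMIs, and 14 of 19 Ikzf2 UMIs. The cell of 12336 UMIs held 12 of the 13 Gzmb UMIs. Tnfrsf4 gave 36 UMIs in 8 control CD4-gated cells and 1 UMI in 1 control CD8-gated cell.

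LTS and control CD4-gated cells differed in some tissue and regulatory genes, but library and group cannot be told apart, and the control side is 14 cells. Across 4090 measured genes 9.98% were at least 2-fold higher in LTS and 20.1% lower, with a median log2 ratio of -0.35, against which single genes should be read. Cells were also thinned to 1000 UMIs each, which left out no cell, so that shares compare at equal depth.

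Cxcr6 was found in 61 of 89 LTS cells and 3 of 14 control cells, or 39.3% (29.1 to 50.3) and 7.14% (0.181 to 33.9) after thinning. Its summed level was 427 and 154 CPM, 2.77-fold (1.43 to 6.16). Il7r was found in 59 of 89 and 4 of 14, or 41.6% (31.2 to 52.5) and 14.3% (1.78 to 42.8) after thinning, and 383 and 85.5 CPM, 4.48-fold (1.88 to 14.0). Cxcr3 was in 39 of 89 and 1 of 14 as deposited, and its summed level had a log2 ratio of 2.55. After thinning its shares were 7.87% (3.22 to 15.5) and 7.14% (0.181 to 33.9). These thinned shares rest on 7 LTS cells and 1 control cell, too few to call them equal. The thinned intervals of all 3 genes overlap between the libraries.

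Tnfrsf4 ran the other way, in 30 of 89 LTS and 8 of 14 control cells, or 14.6% (8.01 to 23.7) and 42.9% (17.7 to 71.1) after thinning. Its level was 142 CPM in LTS and 616 CPM in control, a ratio of 0.230 (0.150 to 0.357). The control cell of 12336 UMIs held 19 of the 36 UMIs, and without it control stood at 368 CPM and the ratio was 0.384. Foxp3 gave 44.1 and 68.4 CPM, and its ratio of 0.644 (0.214 to 2.60) spans equality. The summed regulatory list was 1506 CPM in LTS and 2582 CPM in control, a ratio of 0.583 (0.488 to 0.701). Without the 1 control cell with most of these UMIs, control stood at 1777 CPM and the log2 ratio was -0.24, above the -0.35 median of all genes. The other control cell with Foxp3, of 6392 UMIs and rich in MHC class II, held 31 of the 151 control UMIs of this list. A ratio without both cells was not run, so the direction of this difference is not settled.

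The cytotoxic list summed to 1905 CPM in LTS cells and 1009 CPM in control cells, 1.89-fold (1.45 to 2.50). Of 9 measured members 7 were higher in LTS, 6 of them at least 2-fold, and 2 lower. Of the 9, 3 were at 0 in 1 library, and the median log2 ratio of 2.61 became 0.81 with these set at their limit. The log2 ratio of the sums was 0.92, and 1.50 without that control cell. Gzma, Gzmk and the residency gene Itgae were at 0 in the 14 control cells and were found in 2, 19 and 5 of the 89 LTS cells. A 0 in 14 cells allows up to 23.2% of cells with a UMI. The LTS shares of 2.25%, 21.3% and 5.62% lie below that, so these zeros show no difference. Gzmb ran the other way, with 30 UMIs in 8 LTS cells and 13 UMIs in 2 control cells, or 69.6 and 222 CPM, and Prf1 gave no UMI in LTS cells and 1 UMI in 1 control cell. Interferon-induced genes were lower in LTS in 13 of 14 measured members, 7 of them at least 2-fold, beside 2694 of all 4090 genes lower and 20.1% at least 2-fold lower. Their sum was 3292 CPM in LTS cells and 4617 CPM in control cells, a ratio of 0.713 (0.626 to 0.815). Beside these values, the markers of dendritic cells summed to 183 CPM in LTS cells and 2121 CPM in control cells, where 1 cell held 66.1% of the control UMIs, and those of non-immune cells to 1835 and 3301 CPM. Their part in these differences was not tested.

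Genes were also ranked without regard to the lists. Among 1948 genes at 100 CPM or more and in at least 10% of cells of the higher group, 6.83% were at least 2-fold higher in LTS than in control CD4-gated cells and 18.2% lower. By the rule for named genes, the highest log2 ratios were those of Hnrnpul2 (4.16), Ggnbp2 (4.07), Trps1 (3.73) and Syt11 (3.60). The lowest were those of Luzp1 (-2.94), Pcyt2 (-2.75) and Ptch1 (-2.38). The genes described next were picked from lower ranks among the 15 at each end. Ctsw, a protease of cytotoxic lymphocytes, gave 105 UMIs in 39 LTS cells and 1 UMI in 1 control cell. Epsti1, an interferon-inducible gene, gave 123 UMIs in 54 LTS cells and 2 UMIs in 2 control cells, 8.34-fold (2.26 to 69.7), against the direction of the interferon list. Cd226, which encodes the activating receptor DNAM-1, gave 59 UMIs in 37 cells and 1 UMI in 1 cell. Runx1, a factor of T cell development, gave 47 UMIs in 33 LTS cells and none in control cells, at least 2.13-fold with 3 counts as the limit. Among the 15 lowest were Bst2, which encodes the interferon-induced protein tetherin, with 60 UMIs in 30 LTS cells and 32 UMIs in 12 control cells, and Nfkbiz, an inhibitor-like regulator of NF-kappaB, with 16 UMIs in 12 cells and 10 UMIs in 6 cells.

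CD8-gated cells of the same libraries gave values of the same direction for several of these groups. In them 4.34% of 3690 measured genes were at least 2-fold higher in LTS than in control and 9.05% lower, or 2.42% and 7.78% under the 100 CPM limit. Cxcr6 stood at 450 CPM in LTS CD8-gated cells and 207 CPM in control ones, 2.18-fold (1.43 to 3.50), and Il7r at 181 and 18.8 CPM, 9.62-fold (2.64 to 79.9). The summed cytotoxic list was 2.01-fold higher (1.86 to 2.18). The interferon list was lower in 11 of 12 measured members, beside 2352 of all 3690 genes lower, with a ratio of 0.510 (0.453 to 0.575). The regulatory list was lower in 3 of 4 measured members, at 423 and 648 CPM, a ratio of 0.653 (0.509 to 0.849). The directions of these sums match those in CD4-gated cells, and whether the size differed between the gates was not tested. Tnfrsf4 gave 5 UMIs in LTS and 1 UMI in control CD8-gated cells, too few for a comparison.

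**Figure D5:**
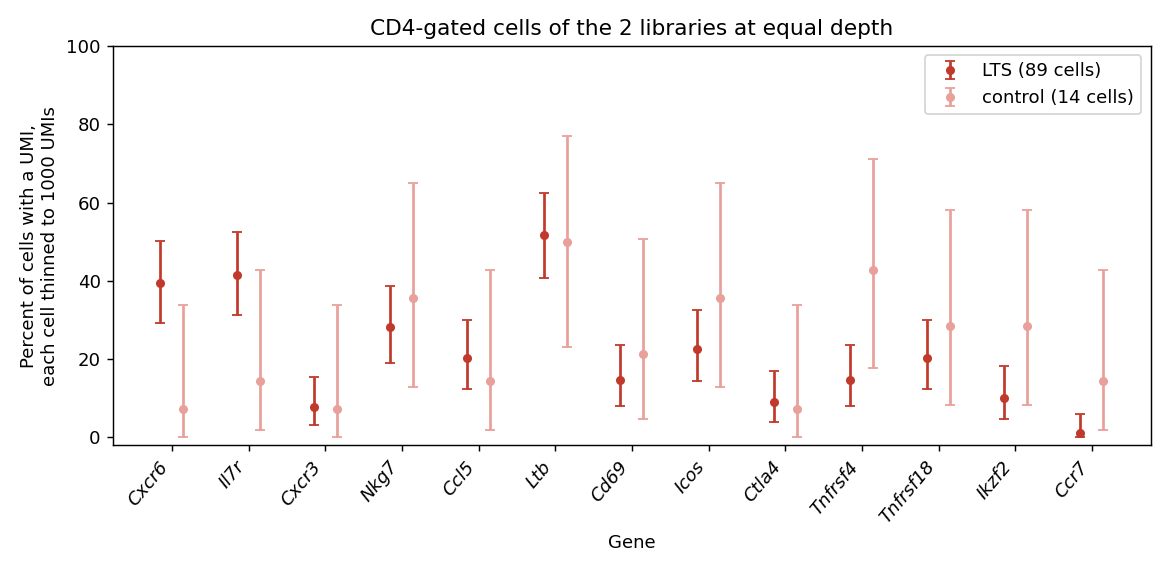
Percent of CD4-gated cells with a UMI after each cell was thinned to 1000 UMIs (y axis) for 13 genes (x axis), in 89 LTS cells (dark red) and 14 control cells (pale red), with exact binomial 95% intervals. Cxcr6 and Il7r lie higher in LTS (39.3% and 41.6%) than in control (7.14% and 14.3%), Tnfrsf4 lower (14.6% and 42.9%), and every pair of intervals overlaps.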

How the data were processed

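Single-cell libraries were made with Chromium 3' kits of version 3, per the labels' protocols, from cells of the 70/37% Percoll interphase. The authors deposited unfiltered UMI counts per gene and barcode. Their software was Cell Ranger 4, per the file headers, and the build mm10, per the submitters' processing notes. The sources used here give neither annotation release nor animal numbers. The matrices list 6794880 barcodes and 27998 genes. Free RNA in droplets was not removed and no doublet caller was run. Cells with Cd4 and Cd8 UMIs together (3 LTS, 0 control) and C1q-rich cells stayed outside the gates.

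UMIs were summed per gate and library and scaled to CPM, with a pseudocount of 10 CPM. CD4-gated LTS and control cells held 431002 and 58476 UMIs. Shares carry exact Clopper-Pearson intervals and count ratios exact conditional intervals at 95%. No test was run, since each group is 1 library. PCR and cell-to-cell differences are outside these intervals, and so are differences between animals.

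Genes named by rank were the 15 highest and 15 lowest per comparison at 100 CPM and in 10% of cells of the higher gate, with no cell above 30% of the counts. Gate, mitochondrial, ribosomal, haemoglobin, sex-specific, receptor segment and unnamed genes were left out. Members of fixed lists at 50 CPM and 14 regulators were added. The gate, members and lists were chosen with earlier results of these data known, and the T cell list came from the marker set. Macrophages for background are cells with 10 or more C1q UMIs and no Cd3 UMI. Cells without Ptprc for background also had no Cd3 UMI, and a higher UMI minimum than the gate's. Alternatives covered the gate limits, thinning, pseudocount, weighting, scaling and free RNA. The steps were tested on simulated counts (python 3.11.15, numpy 2.4.6, scipy 1.17.1, pandas 2.3.3, matplotlib 3.10.9). Positions come from GENCODE M21 and promoters from RefSeq (2 of 3 genes looked for had an entry). Some list genes are not reported here.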

Additional observations from a re-analysis of the deposited data

Results flagged for a closer look

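The 6 gene lists below stood on opposite sides of 0 in the 2 libraries for the log2 ratio of their summed level in CD4-gated over CD8-gated cells, and none of these differences was tested. The Th1 list was at 0.53 in LTS and -0.14 in control, the cell cycle list at 0.10 and -0.53, and the dissociation stress list at -0.16 and 0.36. Markers of other cells did so too: those of microglia and macrophages were at -0.92 in LTS and 0.33 in control, those of monocytes at 0.0072 and -0.77, and those of dendritic cells at -1.47 and 2.04. The control values rest on 14 CD4-gated and 20 CD8-gated cells.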

How the results depend on the processing

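Directions of the regulatory, help and cytotoxic medians held under every alternative run. Of the 37 single genes followed, those past 2-fold kept their direction as well, and the direction of those under 2-fold was not followed. Over 11 alternatives, 269 of 407 values of these genes moved by no more than their counting error. The CD4-gated percent of Cd3-gated cells (16.4 LTS, 14.4 control) was 20.4 and 29.5 with T cell genes required, 20.5 and 31.0 with a limit of 20000 UMIs as well, and 8.09 and 2.06 with at least 2 Cd4 UMIs. The percent of all cells (1.84 LTS, 0.168 control) was 1.19 and 0.0241 from 500 UMIs, 0.910 and 0.0241 with 2 Cd4 UMIs, and 1.20 in LTS with no C1q UMI. Genes higher in CD4-gated LTS cells (64) and lower (76) numbered 39 and 37 with cells weighed equally, 29 and 50 with a pseudocount of 50 CPM, 223 and 650 with no minimum, 33 and 37 with a limit of 20000 UMIs, and 35 and 36 with T cell genes required as well. With T cell genes required alone, 32 were higher.

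The regulatory median (2.20) was 1.17 with a pseudocount of 50 CPM and 0.84 with no minimum. The help median (1.87) was 1.11 with equal weights, 1.02 with the UMI limit and 1.00 with both limits. The residency median (0.13) turned to -0.018 with no C1q UMI, -0.36 with T cell genes required, -0.55 with equal weights, -0.081 with no minimum, -0.58 with the UMI limit and -0.61 with both. The chemokine receptor median turned to -0.26 with no C1q UMI, -0.14 with T cell genes required, -0.20 with the UMI limit and -0.19 with both, and the dissociation stress median to 0.056 with no C1q UMI and 0.13 with no minimum. The log2 ratios of LTS over control for the regulatory, cytotoxic and interferon sums were -0.38, 1.52 and -0.79 with equal weights, and -0.24, 1.50 and -0.73 without the control cell richest in regulatory UMIs. Settings on the UMI limit, that cell and equal weights between libraries were chosen after seeing the data. Beyond the construction of each alternative, the cause was not tested. No paired analysis was possible because each group has 1 library.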
